A study of Mus musculus with 14 samples.

Results

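Ptprc, Cd68, Adgre1, Csf1r, C1qa, C1qb, C1qc, Lyz2, Cd74 and H2-Ab1 are 10 markers of macrophages and other immune cells, followed here through RNA sequencing of β-cells and of intact islets from the mouse pancreas. They were chosen by symbol among 37310 Ensembl gene identifiers common to the 3 deposited count tables, and all 10 were found. One table compares wild-type β-cells of neonates, at postnatal day 6, with those of adults, at day 45, in 3 libraries each. Another compares intact islets labelled TSC1 KO with controls in 2 libraries each, all from mice 8 weeks old and prefixed RC; the series' design text places that knockout in β-cells. The last compares intact islets labelled Db with controls in 2 libraries each, all from mice 4 weeks old and prefixed BKS. C57BL/6 is the strain background given for all 14 libraries. The sources used here do not explain the prefixes, the Cre driver, the allele behind the Db label, how the β-cells were obtained, or whether libraries came from separate or pooled animals. P-values therefore measure only the spread between these libraries, which may be technical. Among the neonatal columns 2 carry the number 3 and are called replicates 3a and 3b.

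Islets hold resident macrophages beside their endocrine cells. Ptprc encodes CD45, a phosphatase on the surface of nearly all blood leukocytes. Cd68 encodes a lysosomal glycoprotein of phagocytes, Adgre1 the F4/80 antigen of mouse macrophages, and Csf1r the receptor for the growth factors on which most tissue macrophages depend. C1qa, C1qb and C1qc encode the A, B and C chains that assemble into C1q, the recognition part of the first complement component, made in most tissues mainly by macrophages. Lyz2 encodes the lysozyme of myeloid cells. Cd74 encodes the invariant chain that escorts class II molecules of the major histocompatibility complex (MHC), and H2-Ab1 encodes the β chain of one of those molecules; dendritic cells and B cells carry both as well.

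The sequences before the transcription start of C1qb, C1qc and Ptprc are shown because these genes fell together in Db islets, as described further on. Each is 250 bases, 5′ to 3′ on the gene's strand, from RefSeq on GRCm38.p6, a later build than those named for the deposited counts. The capitals mark GAGGAA, a core bound by ETS-family factors such as PU.1 of myeloid cells, or its reverse complement.
C1qb, chr4:136886201-136886450 (-): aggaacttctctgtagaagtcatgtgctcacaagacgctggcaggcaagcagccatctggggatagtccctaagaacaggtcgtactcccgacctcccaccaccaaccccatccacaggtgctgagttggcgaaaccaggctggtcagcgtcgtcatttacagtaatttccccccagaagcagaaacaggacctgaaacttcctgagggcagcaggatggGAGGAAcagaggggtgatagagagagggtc
C1qc, chr4:136892915-136893164 (-): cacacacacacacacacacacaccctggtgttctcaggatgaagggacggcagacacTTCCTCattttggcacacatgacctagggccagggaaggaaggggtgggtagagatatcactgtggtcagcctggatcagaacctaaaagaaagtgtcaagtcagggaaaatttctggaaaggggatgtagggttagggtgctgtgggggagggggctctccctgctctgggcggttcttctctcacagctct
Ptprc, chr1:138175306-138175555 (-): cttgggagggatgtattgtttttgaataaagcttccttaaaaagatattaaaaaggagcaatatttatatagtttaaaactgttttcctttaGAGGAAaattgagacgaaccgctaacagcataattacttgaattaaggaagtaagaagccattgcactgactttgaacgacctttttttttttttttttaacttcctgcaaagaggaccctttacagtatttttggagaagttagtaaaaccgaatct
The match lay 30 bases before the start of C1qb, 193 before that of C1qc, on the other strand, and 158 before that of Ptprc, which has 2 starts in RefSeq and a match at the start shown only. Promoters of 5 of the 10 genes were searched here, 6 in all, and 4 of these held a match. The other markers had no entry or were left out of this search, so they are not shown to lack a match. The share that follows covers all promoters, without such omissions. Of all 32851 promoters searched, 23.3% held GAGGAA on either strand. A match describes letters in this window only.

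Counts summed over gene rows ranged from 3507929 to 17688772 per library. The targeted gene did not separate the groups of the second table. Tsc1 read 31.0 and 34.4 CPM (counts per 1000000 counts in gene rows, TMM-scaled) in the libraries labelled TSC1 KO against 25.1 and 54.1 in their controls (log2 fold change -0.28 ± 0.38 SE, adjusted p = 0.638). The sources used here do not say which part of Tsc1 is deleted, so gene-level counts do not check those labels. Lepr, the receptor gene that the name Db usually refers to, had between 1 and 11 counts in every library of its table, too few to test. The β-cell markers, 10 genes including both insulins, were high in all libraries but differed strongly between the islet groups. Their summed level was 12857 to 13364 CPM under the TSC1 KO label against 235001 to 265505 in the RC controls, and 427662 to 494645 in Db islets against 599938 to 920478 in the BKS controls.

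Most markers were most abundant in the islets with the prefix RC and close to the floor in β-cells. CPM values here are scaled within each table, so levels set side by side across tables are descriptions without a test, and the tables differ in age as well. Cd74 averaged 599 ± 187 CPM (SD, n = 2) in RC control islets, 57.9 ± 16.0 in BKS control islets, 3.96 ± 4.40 (n = 3) in adult β-cells and 0.900 ± 1.33 in neonatal β-cells. Ptprc averaged 16.1 ± 4.69 CPM in RC control islets and 1.73 ± 0.274 in BKS control islets. Lyz2 averaged 71.7 ± 23.4 CPM against 3.87 ± 2.15 in the same 2 groups. C1qa departed from this order, with 86.1 ± 6.55 CPM in RC control islets and 110 ± 15.5 in BKS control islets. C1qc did so in part, at 36.7 and 36.6 CPM in RC control islets, 24.0 and 24.1 under the TSC1 KO label, and 23.3 and 37.6 in BKS control islets.

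**Figure D1:**
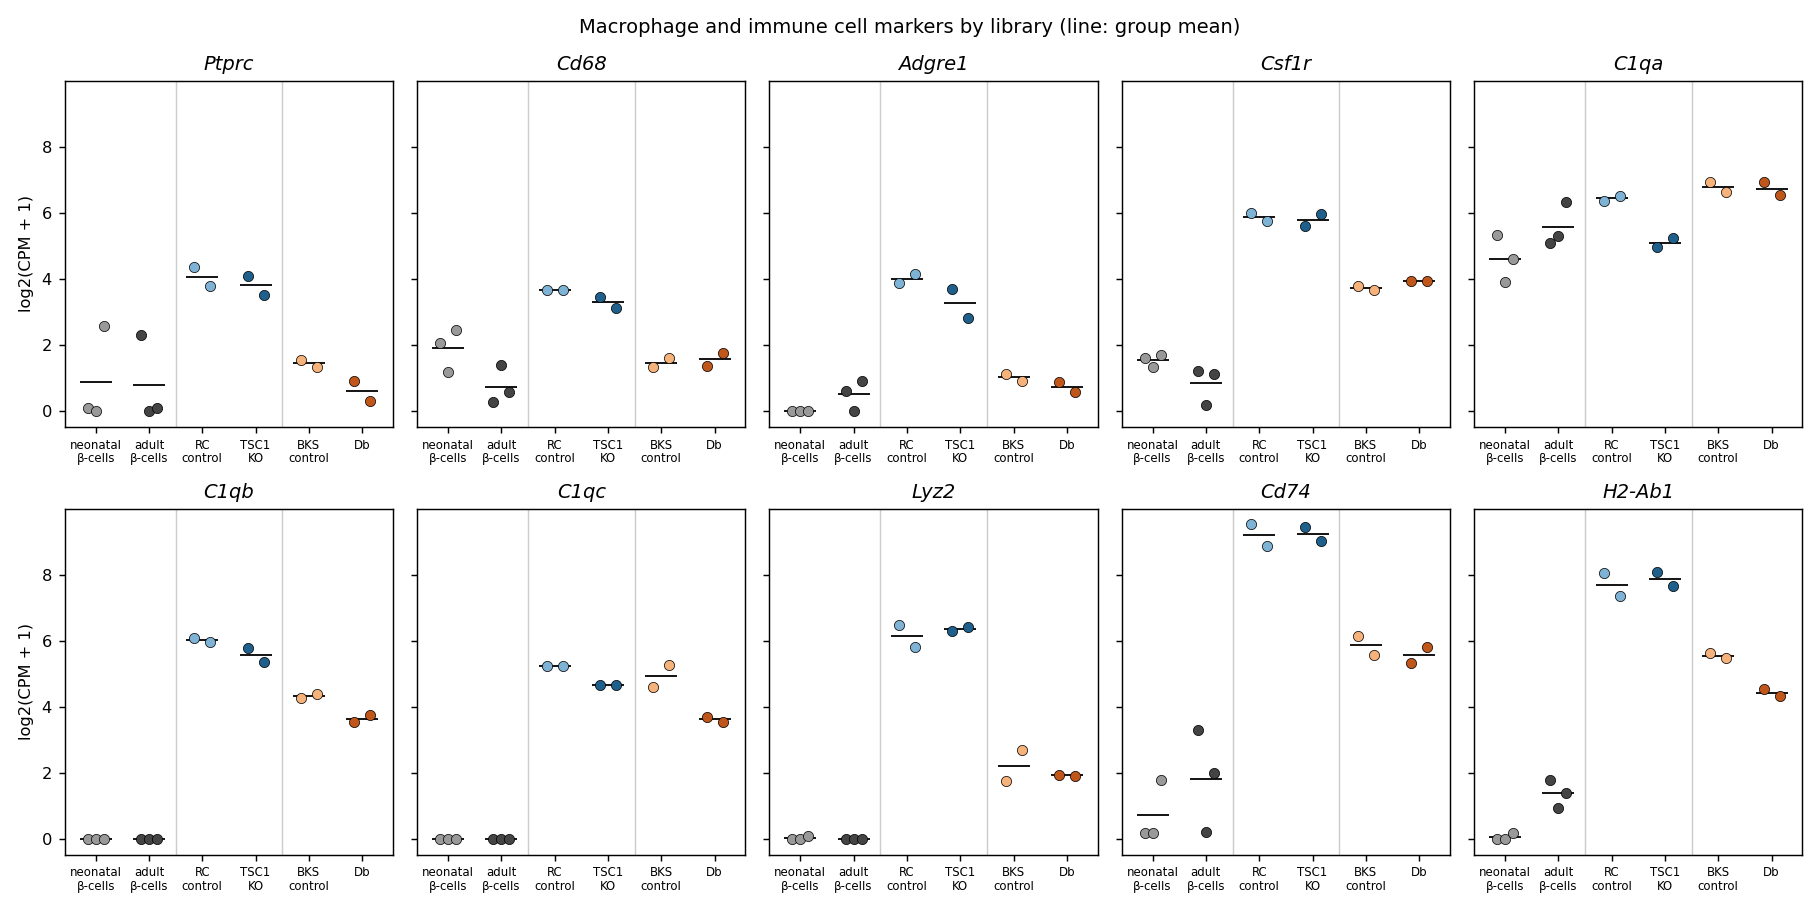
Each panel shows 1 marker gene, with log2(CPM + 1) on the vertical axis, a point for each of the 14 libraries and a line at the mean of each group; grey lines separate the 3 tables. Most markers stand highest in the RC table and near 0 in β-cells, where C1qb and C1qc have no counts, whereas C1qa is present in every library.

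Set against each other per kilobase of their longest transcript (GENCODE M21), the genes kept a wide range within a group. In RC control islets Cd74 stood first at 425 ± 133 CPM per kilobase, followed by H2-Ab1 at 175 ± 58.8 and C1qa at 82.8 ± 6.30. C1qb at 58.9 ± 4.15 and Lyz2 at 54.5 ± 17.8 did not differ beyond their spread. Next came C1qc at 30.5, Csf1r at 12.4 ± 1.45, Cd68 at 9.54, Adgre1 at 4.67 ± 0.664 and Ptprc at 2.81 ± 0.817. In BKS control islets C1qa came first at 106 ± 14.9 CPM per kilobase. Cd74 at 41.1 ± 11.4 and H2-Ab1 at 37.8 ± 3.08 did not differ beyond their spread there. C1qc followed at 25.3 ± 8.38 and C1qb at 17.5 ± 0.875, which also overlapped within that spread. Lyz2 at 2.94 ± 1.63, Csf1r at 2.58 ± 0.179, Cd68 at 1.44 ± 0.319, Adgre1 at 0.321 and Ptprc at 0.302 closed the order.

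In the β-cell libraries the B chain and C chain genes of C1q were not detected at this depth, whereas the row of the A chain gene held counts in all 6. C1qb and C1qc had 0 counts in each, where 3 counts, the number that a count of 0 still allows, correspond to 0.185 to 0.236 CPM. C1qa had 500, 538 and 987 counts in adult replicates 1, 2 and 3, and 603, 206 and 380 in neonatal replicates 1, 3a and 3b. In CPM these are 33.4, 38.4 and 79.0 for adults and 39.2, 13.9 and 23.1 for neonates. The 2 ages overlapped, with neonatal replicate 1 above 2 of the 3 adults. The C1qa row thus held 100% of the C1q counts in each β-cell library, with 95% Wilson limits no lower than 98.2%, which cover counting error only. The other 9 markers together summed to between 2.86 and 17.3 CPM in these libraries. In GENCODE M21 no other coding gene shares exon bases with C1qa, and C1qc lies within 5000 bases of it on the same strand. That annotation is not the one used for counting, which the sources used here do not give, so which transcripts the C1qa row counts in β-cells could not be checked.

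The remaining markers were scattered over single β-cell libraries. Lyz2 had 1 count over all 6 together. Ptprc had 59, 0 and 1 counts in adults and 1, 0 and 82 in neonates, so adult replicate 1 and neonatal replicate 3b held nearly all of them. Markers of several other cell groups were also highest, within their age, in those 2 libraries. In adult replicate 1 the summed level of mesenchymal markers was 64.8 CPM, of endothelial 42.5, of acinar 48.8 and of lymphocyte genes 32.4, against at most 27.2, 10.6, 18.8 and 10 in the other adults. In neonatal replicate 3b the same sums were 297, 30.3, 82.8 and 41.7 CPM, against at most 30.2, 16.5, 31.4 and 15 in the other neonates. Other islet endocrine markers were highest in the same 2 libraries, at 2488 and 2597 CPM, against at most 1551 and 2424 in their age. Class II and dendritic cell genes stood at 11.6 and 11.4 CPM there, against at most 6.24 and 6.96. Complement genes stood at 119 and 157 CPM, against at most 113 and 102. Not every list followed. Duct markers were lowest of their age in both libraries, at 757 and 1257 CPM. The further macrophage and monocyte genes were lowest of the adults in adult replicate 1, at 16 CPM. They were highest of the neonates in neonatal replicate 3b, at 38.5 CPM. Neutrophil and mast cell genes and erythroid markers were not highest of the adults in adult replicate 1. The part of other cell types in the immune marker counts was not tested. Cd74 had 131, 2 and 37 counts in adults and 2, 2 and 40 in neonates, highest in those same libraries and in adult replicate 3. Cd68 had 3, 23 and 6 counts in adults and 49, 19 and 74 in neonates, and Csf1r 20, 2 and 15 against 31, 23 and 37. Exons of Csf1r overlap Hmgxb3 on the opposite strand, and no strand setting is stated for the counting, so reads of the pair cannot be told apart. Adgre1 had 8, 0 and 11 counts in adults and 0 in each neonate, so the ages overlapped, and it was not tested. Against a floor of 3 counts over the neonatal group, the adult counts as observed would be 6.33-fold higher. This allows no counting error in the adults and is not a lower limit.

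The comparison of adult with neonatal β-cells addresses maturation after birth. edgeR's quasi-likelihood test with Benjamini-Hochberg adjustment over 14304 genes called 3.38% of them higher in adults and 3.60% lower at a threshold of 0.05. Of the 10 markers 5 had enough counts to be tested, and 0 were called in either direction by edgeR or limma-voom. DESeq2, run on the 8 with any count, also called 0. At an unadjusted p below 0.05 edgeR had 2, C1qa and H2-Ab1. C1qa averaged 50.3 ± 25.0 CPM in adults and 25.4 ± 12.8 in neonates (n = 3 each), a log2 fold change of 0.98 ± 0.40 SE with an adjusted p of 0.173. Under the alternatives this p ran from 0.0286, with no filter on low counts, to 0.658, without adult replicate 3. That library had the highest C1qa level, and 53.64% of its reads were not aligned, against 14.89% to 26.03% in the other β-cell libraries. The part of unaligned reads in this level was not tested.

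H2-Ab1 had 37, 13 and 20 counts in adult libraries and 0, 0 and 2 in neonatal ones, with no overlap. The share of all genes without overlap was not counted. Scaled to the libraries' totals, 70 counts against 2 give a ratio of 35.0, with an exact 95% interval of 9.34 to 295 that covers counting error only. Between libraries its log2 fold change was 5.06 ± 2.20 SE, with an adjusted p of 0.198 and between 0.0684 and 0.478 under the alternatives. Cd74, which works with it in antigen presentation, had a log2 fold change of 2.12 ± 1.61 and an adjusted p of 0.521. Cd68 and Csf1r were lower on average in adults, with log2 fold changes of -1.94 ± 1.49 and -1.11 ± 1.55 and adjusted p of 0.526 and 0.77.

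Other immune genes were mostly sparse in β-cells. Of 110 genes in the lists of further macrophage, class II, lymphocyte, neutrophil and mast cell genes and the markers themselves, 61 reached 10 counts in 0 of the 6 libraries and 17 in 1, while 2 did so in all 6. Of 7 tested macrophage and monocyte genes 0 passed the test in edgeR, 0 at an unadjusted p below 0.05, and 0 in limma-voom, while DESeq2, which tested 22 of the list, called 1 lower. Apoe, a lipid carrier of macrophages and other cells, averaged 3.97 ± 1.77 CPM in adults and 7.08 ± 0.921 in neonates (adjusted p = 0.606). Among 7 tested growth factors, chemokines and cytokines 0 passed in edgeR or limma-voom, with 1 at an unadjusted p below 0.05 in edgeR, and DESeq2 called 0 of 16. Csf1, a ligand of the Csf1r receptor, averaged 16.6 ± 6.37 CPM in adults and 31.2 ± 8.88 in neonates (adjusted p = 0.177). Csf2rb, a receptor chain for myeloid growth factors, averaged 39.9 ± 5.31 and 22.3 ± 16.6 CPM (log2 0.84, adjusted p = 0.285). Without neonatal replicate 3a, the highest of the neonates, Csf2rb was called higher in adults (log2 1.63, adjusted p = 0.00345). Single genes did change: Cd59a, which shields cells from the complement attack complex, rose 10.8-fold (log2 3.43 ± 0.78, adjusted p = 0.0134), a call lost without adult replicate 1 (adjusted p = 0.102). Kit, a receptor of mast cells and of other progenitors, fell by 2.92 ± 0.80 on the log2 scale (adjusted p = 0.036), a call lost in limma-voom and without adult replicate 1 or 2 or neonatal replicate 1 or 3b (adjusted p up to 0.141).

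**Figure D2:**
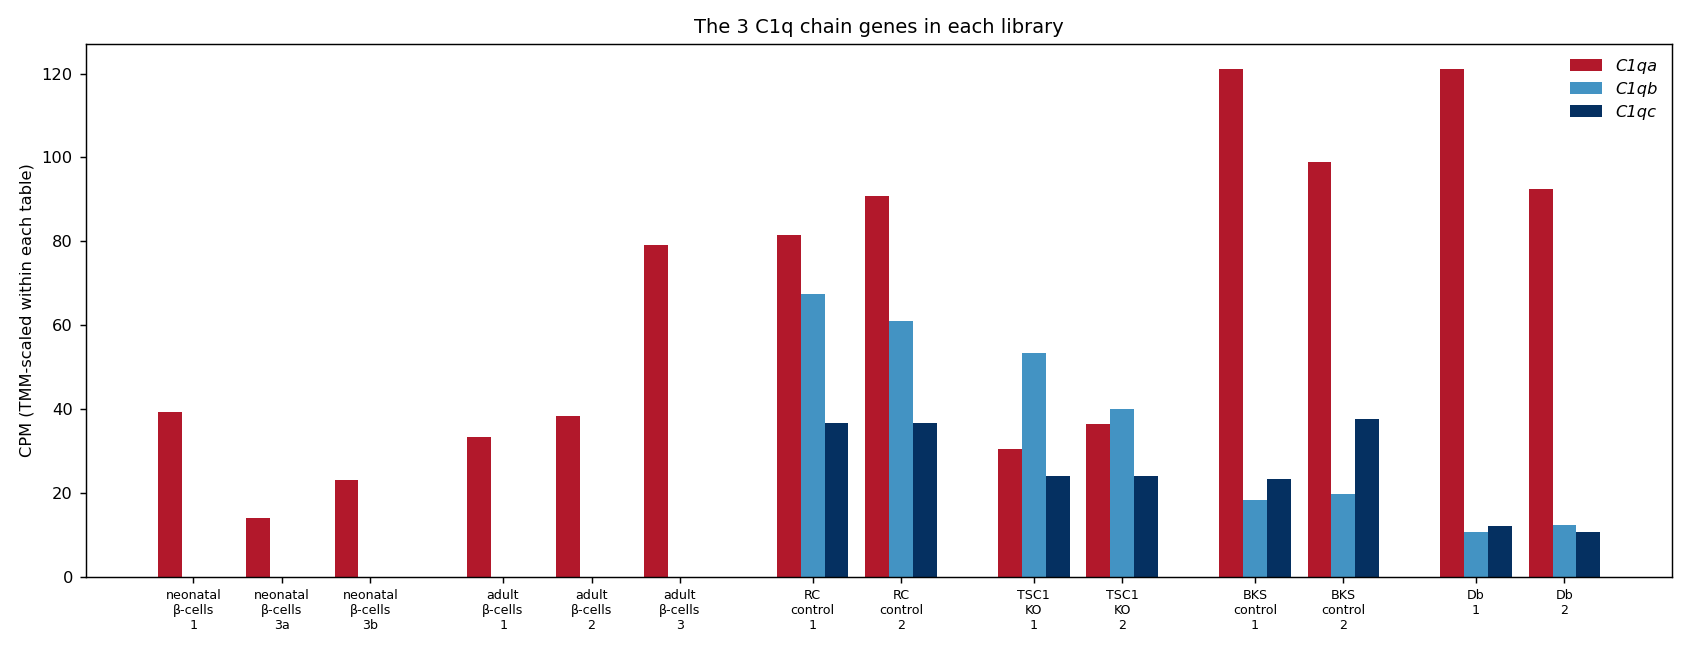
Bars give the CPM of C1qa, C1qb and C1qc in each of the 14 libraries, scaled within each table. C1qa is the only bar in β-cells, is below C1qb in both TSC1 KO libraries and is the tallest bar in each BKS control and Db library.

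In whole islets under the TSC1 KO label, C1qa was the 1 marker that changed, and it was lower. Its level was 30.5 and 36.5 CPM against 81.5 and 90.8 in RC controls, with no overlap. With 2 libraries per group, lack of overlap is a description for any gene here, because its share over all genes was not counted. This is a 2.58-fold decrease (log2 -1.37 ± 0.21 SE, adjusted p = 0.0154, with 0.000765 to 0.16 under the alternatives). Of the 14515 genes tested in this comparison 10.0% were called lower and 8.63% higher, so 1 of 10 markers lower is about the share of all genes and 0 of 10 higher is below it. DESeq2 and limma-voom also called C1qa lower and 0 markers higher, and edgeR had 0 markers higher and 2 lower at an unadjusted p below 0.05. Leaving out either KO library ended the call, with adjusted p up to 0.16, and also every other call of the comparison: edgeR then called 0 of 15304 and 0 of 15421 genes, with 3535 and 3061 at an unadjusted p below 0.05. In bulk samples such as these, fewer cells of a type and less RNA per cell cannot be told apart.

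The other C1q chains were lower on average without passing the test. C1qc read 24.0 and 24.1 CPM under the KO label against 36.7 and 36.6 in controls (log2 -0.61 ± 0.19, adjusted p = 0.0775), and passed when libraries were scaled by their totals alone (adjusted p = 0.0445). C1qb read 53.4 and 40.1 CPM against 67.3 and 60.9 (log2 -0.45 ± 0.22, adjusted p = 0.192). Neither pair of groups overlapped. The share of C1q counts that came from C1qa was 28.3% and 36.2% in the KO libraries and 44.0% and 48.2% in the controls, with 95% Wilson intervals from 24.4% to 41.8% and from 41.1% to 50.9%. Together with C1qa, the β-cell markers were lower in these islets in 9 of 10 genes, beside 10.0% of all genes. Other islet endocrine markers were lower in 6 of 9 tested genes and higher in 1. Their sum was 3177 to 7887 CPM against 28314 to 33974 in controls. The part of either list in the C1qa result was not tested.

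The antigen-presentation genes had no call. Cd74 read 687 and 521 CPM under the KO label and 731 and 467 in controls (log2 0.01 ± 0.37, adjusted p = 0.985). H2-Ab1 read 267 and 199 CPM against 263 and 162 (log2 0.14 ± 0.33, adjusted p = 0.802). For both the groups overlapped fully or in part, and RC control replicate 1 was above RC control replicate 2. The direction of these 2 small differences, and that of Lyz2, turned when libraries were scaled by their totals alone, a setting that moves the median of all genes from 0.00 to -0.25 on the log2 scale.

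Surface and lysosomal markers of macrophages had no call either. Lyz2 read 77.8 and 84.3 CPM against 88.3 and 55.2 in controls (adjusted p = 0.681). Csf1r read 47.8 and 62.2 CPM against 63.0 and 53.4 (adjusted p = 0.812). Ptprc read 16.1 and 10.4 CPM against 19.4 and 12.8 (adjusted p = 0.612). In these 3 genes the groups overlapped. Cd68 at 10.0 and 7.69 CPM against 11.7 and 11.8 (log2 -0.39 ± 0.30, adjusted p = 0.384) and Adgre1 at 12.1 and 6.02 CPM against 13.6 and 16.6 (log2 -0.71 ± 0.38, adjusted p = 0.231) were lower in both KO libraries without passing. Over the 10 markers the median log2 fold change was -0.33, against 0.00 over all genes tested.

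The wider macrophage lists showed the same absence of calls in this comparison. Of 28 further macrophage and monocyte genes tested 0 passed in edgeR, with 4 higher and 2 lower at an unadjusted p below 0.05 and 0 in limma-voom, and their median was 0.41. DESeq2 tested 35 of the list and called 1 higher. Among them Ctss, a protease that trims the invariant chain, averaged 55.8 ± 11.7 CPM against 87.0 ± 5.45 (adjusted p = 0.0996), and Apoe 805 ± 58.9 against 597 ± 113 (adjusted p = 0.39). Of 15 class II and dendritic cell genes tested 0 passed in edgeR or limma-voom, with 2 higher at an unadjusted p below 0.05 in edgeR, and DESeq2 called 0 of 20. H2-Aa, the partner chain of H2-Ab1, averaged 302 ± 54.2 CPM against 273 ± 77.7 (adjusted p = 0.781), and H2-Eb1, the β chain of the other class II molecule, 272 ± 53.6 against 253 ± 88.1 (adjusted p = 0.848). Of 14 complement genes tested edgeR called 0, with 4 higher at an unadjusted p below 0.05, while limma-voom called 2 higher and DESeq2 3 of 17. C3, the central complement component, read 217 and 520 CPM against 76.1 and 10.3 (log2 3.09 ± 1.02, adjusted p = 0.0983, and 0.0101 without RC control replicate 1).

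Some signals to macrophages and some antibody genes had calls. Of 17 growth factors, chemokines and cytokines tested 4 rose and 0 fell, with a median of 0.66, beside 8.63% higher and 10.0% lower over all genes. Cxcl12, a chemokine of stromal cells, rose from 28.6 and 15.7 CPM in controls to 111 and 146 (5.79-fold, log2 2.53 ± 0.34, adjusted p = 0.013). Csf1 rose from 25.1 and 10.6 CPM to 67.4 and 62.5 (3.64-fold, log2 1.87 ± 0.41, adjusted p = 0.0351), while its receptor gene Csf1r had no call. Csf2rb rose from 8.22 and 2.80 CPM to 25.4 and 24.1 (4.51-fold, log2 2.17 ± 0.49, adjusted p = 0.0361). The fourth was Cxcl16, a membrane-bound chemokine and scavenger receptor. Without RC control replicate 1 the count was 8 of 17, without RC control replicate 2 it was 4 higher and 3 lower of 19, and without either KO library it was 0. Of 7 lymphocyte genes tested 2 fell, both of antibody-making cells, beside the same 10.0% of all genes. Ighm, the antibody heavy chain of type M, read 13.3 and 8.03 CPM against 37.3 and 23.8 (log2 -1.50 ± 0.35, adjusted p = 0.0371). The call was lost in limma-voom (adjusted p = 0.0507) and without RC control replicate 1 (adjusted p = 0.052). Jchain, which joins antibody units, had 0 counts in both KO libraries against 15 and 19 (adjusted p = 0.0322). At a floor of 3 counts over the KO group it would be 7.43-fold lower, with no counting error allowed in the controls. The call of Jchain was lost without RC control replicate 2 (adjusted p = 0.0785), and both calls were lost without either KO library (adjusted p up to 0.228). limma-voom called 1 of the 7. Without RC control replicate 2 the lymphocyte count was 6 lower of 13, Jchain not among them, without RC control replicate 1 it was 1 higher and 1 lower of 7, and without either KO library it was 0.

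Other cell types moved in the same islets, beside 8.63% of all genes called higher and 10.0% lower. Duct markers rose in 3 of 12 genes, to a summed 3146 to 4520 CPM from 574 to 1831. Mesenchymal markers rose in 1 of 14, to 2946 to 7341 CPM from 1495 to 2235. Acinar markers had 0 calls in 15 tested genes, at 1860 to 4165 CPM against 2999 to 4042. Erythroid markers had 0 in 5, at 121 to 213 CPM against 42.2 to 119. Endothelial markers rose in 7 of 14 genes, to a summed 5527 to 7112 CPM from 2988 to 3142, and all 4 tested stomach mucosa genes rose, to 190 to 320 CPM from 10.9 to 19.7, with 4 of that list's 8 genes at 0 in every library of each group. Neutrophil and mast cell genes summed to 14.9 to 25.1 CPM against 11.5 to 18.5, with 0 of 2 tested genes called or at an unadjusted p below 0.05 in edgeR, 0 called by limma-voom and 0 of 6 by DESeq2. The part of these cell types in the results above was not tested.

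**Figure D3:**
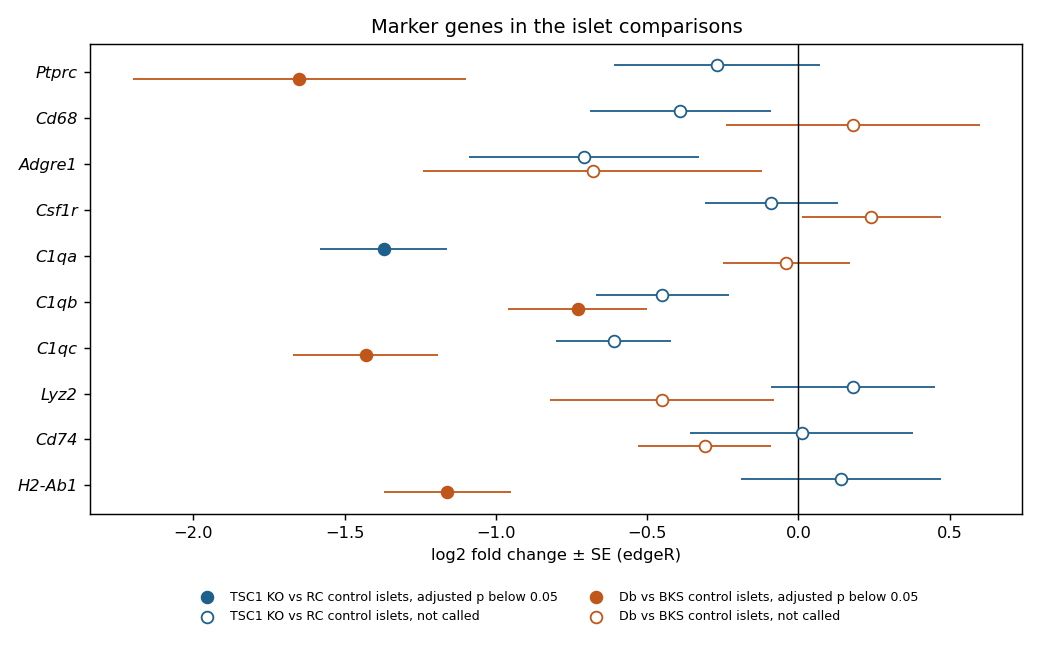
Points give the log2 fold change of each marker in the 2 islet comparisons and bars its standard error, derived from edgeR's F statistic. Filled points have an adjusted p below 0.05. C1qa is the filled point of the TSC1 KO comparison, whereas Ptprc, C1qb, C1qc and H2-Ab1 are filled in the Db comparison, all below 0.

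Islets labelled Db showed another set of lower markers. C1qc, H2-Ab1, C1qb and Ptprc fell, 4 of 10, and 0 of 10 rose. Across the 14369 genes tested here 23.9% were called lower and 24.3% higher, a high background beside which the 4 of 10 has to be read. edgeR had 0 markers higher at an unadjusted p below 0.05 as well, and DESeq2 and limma-voom called 0 higher. The median over the 10 markers was -0.56 against -0.03 over all genes tested. DESeq2 called 2 of them lower and limma-voom 4, and leaving out single libraries gave between 3 and 5.

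C1qc had the smallest p of the 4. It read 12.0 and 10.6 CPM in Db islets against 23.3 and 37.6 in BKS controls, a 2.69-fold decrease (log2 -1.43 ± 0.24 SE, adjusted p = 2e-05). H2-Ab1 read 22.2 and 19.0 CPM against 48.4 and 43.1, a 2.23-fold decrease (log2 -1.16 ± 0.21, adjusted p = 4.9e-05). Neither gene's groups overlapped, a description only, because the share of all genes without overlap was not counted. Both calls held under every alternative run, with adjusted p up to 0.0052 for C1qc and 0.025 for H2-Ab1.

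The calls of C1qb and Ptprc were less firm. C1qb read 10.6 and 12.4 CPM against 18.4 and 19.8, a 1.66-fold decrease (log2 -0.73 ± 0.23, adjusted p = 0.0096). It did not pass with scaling by library totals (adjusted p = 0.331), in DESeq2 (0.0625) or without Db replicate 1 (0.119). Ptprc rested on 16 and 5 counts in Db islets and 18 and 12 in controls, or 0.885 and 0.242 CPM against 1.93 and 1.54 (log2 -1.65 ± 0.55, adjusted p = 0.0147). It did not pass in DESeq2 (0.176), without BKS control replicate 1 (0.0814) or without Db replicate 2 (0.329).

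C1qa did not follow the other chains in these islets. It read 121 and 92.4 CPM in Db islets and 121 and 99.0 in controls (log2 -0.04 ± 0.21, adjusted p = 0.884), so the groups overlapped. C1qa made up 84.3% and 80.0% of the C1q counts in Db islets against 74.3% and 63.3% in controls, with 95% Wilson intervals from 78.4% to 85.7% and from 60.6% to 76.5%. The ratio of C1qb to C1qc counts was 0.880 and 1.17 in Db islets, 0.789 and 0.526 in BKS controls, and between 1.66 and 2.22 in all 4 libraries of the RC table.

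The other 5 markers had no call. Cd74 read 38.9 and 54.5 CPM against 69.3 and 46.6 (log2 -0.31 ± 0.22, adjusted p = 0.245, and 0.0247 without BKS control replicate 2), so that it did not share the call of H2-Ab1. Csf1r read 14.3 and 14.4 CPM against 12.7 and 11.6 (log2 0.24 ± 0.23, adjusted p = 0.41). Cd68 read 1.60 and 2.38 CPM against 1.50 and 2.05 (adjusted p = 0.741). Lyz2 read 2.82 and 2.76 CPM against 2.36 and 5.39 (adjusted p = 0.32, and 0.0402 without BKS control replicate 1), and Adgre1 0.829 and 0.485 against 1.18 and 0.898 (adjusted p = 0.32). Lyz2 has the close copy Lyz1, between which counting could split reads.

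Among 18 further macrophage and monocyte genes tested in Db islets, 2 rose and 9 fell, with a median of -0.67. Over all genes tested 24.3% were called higher and 23.9% lower. Cx3cr1, the fractalkine receptor of monocytes and resident macrophages, fell from 6.43 and 2.95 CPM to 1.11 and 1.11 (4.25-fold, log2 -2.09 ± 0.40, adjusted p = 0.000104). Cybb, a subunit of the phagocyte oxidase, fell from 2.25 and 2.95 CPM to 0.719 and 0.339 (4.90-fold, adjusted p = 0.000376). Ly86, the MD-1 partner of a toll-like receptor homologue, fell from 0.750 and 2.18 CPM to 0.166 and 0.388 (4.91-fold, adjusted p = 0.00438), and lost its call in DESeq2 and without BKS control replicate 2 or Db replicate 1 (adjusted p up to 0.236). The 2 that rose were at low counts. Trem2, a lipid-sensing receptor of macrophages, read 3.10 and 1.84 CPM against 1.07 and 0.898 (adjusted p = 0.0211), and Itgb2, the shared chain of leukocyte integrins, 1.27 and 1.89 against 0.643 and 0.642 (adjusted p = 0.0452). Both lost the call in DESeq2 and on leaving out BKS control replicate 2 or Db replicate 1, and Itgb2 also without the other 2 libraries and in limma-voom. The count of lower genes was 4 of 31 in DESeq2, 5 with scaling by library totals, 4 without Db replicate 1 and 5 without Db replicate 2.

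Chains of the class II molecules fell and a gene of their loading machinery rose. Of 6 class II and dendritic cell genes tested 3 fell and 1 rose, beside 23.9% lower and 24.3% higher of all genes. H2-Aa read 5.81 and 8.97 CPM in Db islets against 20.2 and 17.8 (2.57-fold lower, log2 -1.36 ± 0.25, adjusted p = 6.77e-05). H2-Eb1 read 7.96 and 12.6 CPM against 24.0 and 22.7 (2.27-fold lower, log2 -1.18 ± 0.24, adjusted p = 0.000206). Zbtb46, a transcription factor of conventional dendritic cells, read 2.43 and 2.91 CPM against 5.89 and 5.65 (adjusted p = 0.0051), a call lost in DESeq2, with scaling by library totals and without Db replicate 1 (adjusted p up to 0.0899). H2-DMa, a chain of the molecule that loads peptides onto class II, read 9.62 and 8.97 CPM against 3.75 and 3.34 (2.61-fold higher, log2 1.38 ± 0.29, adjusted p = 0.000334). The calls of H2-Aa, H2-Eb1 and H2-DMa held under every alternative run.

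Of 11 complement genes outside C1q tested, 3 rose and 4 fell, beside 24.3% higher and 23.9% lower of all genes. C4b, cleaved by the first component, rose from 1.39 and 0.770 CPM to 6.63 and 8.73 (6.93-fold, adjusted p = 1.11e-06). C3 rose from 6.53 and 5.01 CPM to 17.2 and 30.3 (4.10-fold, adjusted p = 2.34e-06), and Serping1, the inhibitor of the C1 proteases, from 9.53 and 6.80 to 18.9 and 22.7 (2.54-fold, adjusted p = 6.64e-05). Cd59a fell from 9.42 and 10.5 CPM to 4.98 and 2.38 (2.73-fold, adjusted p = 0.000507). C1s1, a protease of the first component, averaged 1.04 ± 0.0963 CPM against 2.19 ± 0.528 (adjusted p = 0.0473), a call lost with scaling by library totals and in DESeq2, among other settings. C1qbp, named for its binding to C1q and active in mitochondria, fell as well. The lower count was 1 with scaling by library totals and 2 in DESeq2, which tested 17, without BKS control replicate 2 and without Db replicate 2.

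Of 9 growth factors, chemokines and cytokines tested 1 rose and 2 fell, beside the same 24.3% and 23.9% of all genes, and without BKS control replicate 2 it was 3 and 2 of 11. Mif, a cytokine that β-cells also make, rose from 8.25 and 8.21 CPM to 20.1 and 21.2 (2.51-fold, adjusted p = 4.72e-05). Cxcl16 fell from 11.0 and 11.8 CPM to 3.26 and 4.31 (3.00-fold, adjusted p = 3.65e-05). Il1b, the inflammatory interleukin of macrophages, had 14 and 17 counts in controls and 0 and 2 in Db islets. Scaled to the libraries' totals it was 28.0 times higher in controls, with an exact 95% interval of 7.13 to 242 for counting error only (adjusted p = 1.02e-05). Of 4 tested lymphocyte genes Cd79a, of the B cell receptor, fell from 1.82 and 1.67 CPM to 0.221 and 0.533 (adjusted p = 0.00203, and up to 0.0917 under the alternatives).

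**Figure D4:**
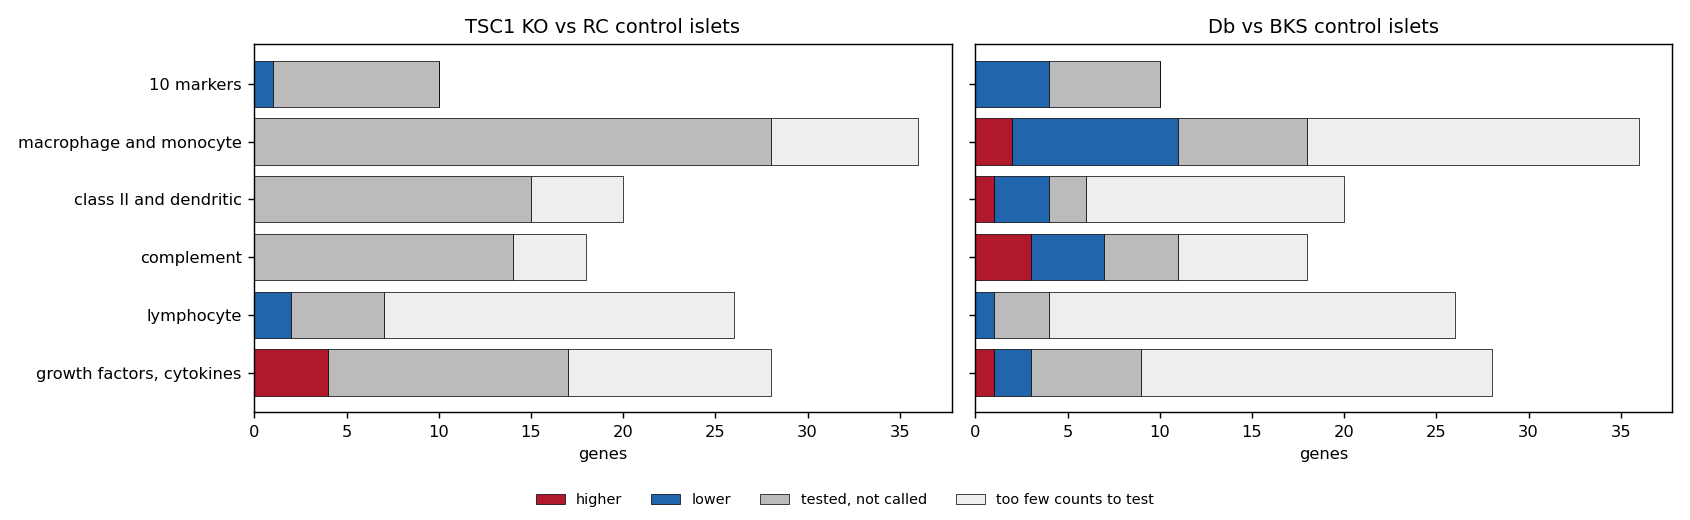
Horizontal bars count the genes of each immune list that were higher, lower, tested without a call, or too sparse to test, for the TSC1 KO comparison on the left and the Db comparison on the right. Lower calls among the markers and the macrophage genes are 1 of 10 and 0 of 28 on the left, and 4 of 10 and 9 of 18 on the right. Over all genes tested, 10.0% were lower on the left and 23.9% on the right.

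Other cell types differed between the Db and control libraries too, beside 24.3% of all genes called higher and 23.9% lower. Lysosomal genes of phagocytes and other cells were 8 higher and 2 lower of 15, led by Ctsd, a protease, at 361 ± 17.4 CPM against 115 ± 35.4 (3.15-fold, adjusted p = 1.08e-06). Erythroid markers rose in 4 of 5 tested genes, to a summed 38.6 to 59.3 CPM from 10.3 to 18.1. Acinar markers rose in 7 of 12 and fell in 1, at 148 to 314 CPM against 29.4 to 38.2, and mesenchymal markers rose in 8 of 13 and fell in 1, at 808 to 815 CPM against 492 to 612. Duct markers rose in 4 of 9 and fell in 2, at 1202 to 1205 CPM against 585 to 613. Endothelial markers rose in 5 of 14 and fell in 5, at 803 to 829 CPM against 988 to 1043. Other islet endocrine markers rose in 2 of 9 and fell in 1, at 9523 to 11029 CPM against 4038 to 7865. β-cell markers fell in 7 of 10 and rose in 1. Their part in the results on immune genes was not tested. Scaling by library totals moves the median of all genes from -0.03 to 0.29 on the log2 scale, with 3983 genes higher and 1562 lower in place of 3488 and 3431.

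Whether the TSC1 KO and Db differences were unequal was tested in a joint edgeR fit to all 8 islet libraries, which called 31.8% of 15702 genes. C1qa and H2-Ab1 were called, 2 of 10 markers. For C1qa the TSC1 KO difference was lower than the Db difference by 1.42 ± 0.32 SE on the log2 scale, a value of -1.42 (adjusted p = 0.00518), a call that held under every alternative run, with adjusted p up to 0.0324. For H2-Ab1 the TSC1 KO difference was the higher by 1.20 ± 0.36 (adjusted p = 0.0235), a call lost with scaling by library totals (adjusted p = 0.246) and without RC control replicate 2, TSC1 KO replicate 1 or any library of the third table (adjusted p of 0.053 to 0.12). That of C1qc was 0.73 ± 0.35 (adjusted p = 0.125), and that of C1qb 0.19 ± 0.30 (adjusted p = 0.651). The comparisons also differ in age and in table, so that genotype, age and table cannot be told apart.

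The genes whose profile over the 8 islet libraries lay nearest to the mean profile of the 10 markers were not themselves immune genes by the lists used here. Profiles were log2(CPM + 1) centred within each table, and likeness was the root mean square difference over 13395 genes tested in both tables. The nearest were Ppp2r2d at 0.049, Shisa7 at 0.051, Kcnc2 at 0.055, Rxrb at 0.063 and Abhd12 at 0.067. C1qb, the nearest marker, lay at 0.126, and 94 genes that are not markers lay as near or nearer. C1qa was the farthest marker, at 0.428, after C1qc at 0.364. These distances are a description over 8 libraries of 4 groups. The mean profile includes each marker itself, which draws the markers' own distances down. Adding 1 to the CPM flattens genes at low levels, such as Shisa7 and Kcnc2, with means of 1.87 and 1.64 CPM.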

How the data were processed

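The deposited files are raw counts per Ensembl gene, in 3 tables. Per the submitters' processing notes the authors used cutadapt 1.13, GSNAP, HTSeq 0.7.1 and DESeq2 1.16.0, and 2 mouse builds, NCBIM37 and mm9, are named. The sources used here do not give the build, annotation or strand setting of the counting. Per the labels' protocols, libraries were made from total RNA with a stranded SMARTer kit. Rows naming no gene were left out: reads outside annotated features made up 16.33% to 32.53% of reads in the β-cell table and 42.50% to 49.56% in the Db table, and the RC table has no such rows. Symbols came from GENCODE M21 and matched 32620 identifiers (87.4%).

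Each comparison was fitted on its whole table with the quasi-likelihood test of edgeR 4.0.16 in R 4.3.3. The test was two-sided and followed a filterByExpr filter with minimum counts of 10 and, in total, 15, TMM scaling and robust dispersion, with Benjamini-Hochberg adjustment and a threshold of 0.05. Adjusted p-values without another name come from it. The SE of a log2 fold change is its absolute value divided by the square root of the test's F statistic. CPM are counts over the TMM-scaled library size. A joint fit over the 8 islet libraries compared the 2 islet differences. Self-tests ran on simulated data. The alternatives were scaling by library totals, DESeq2 size factors, DESeq2 1.42.0, limma-voom (limma 3.58.1), no filter, insulin and mitochondrial genes left out, each library left out, and a replicate block. Where an arm then held 1 library, that library was assumed to vary like the others. DESeq2 ran on every gene with any count, so its totals include sparse genes that its own filter can leave without an adjusted p.

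The 10 markers and the gene lists were chosen with earlier results of these data known. In each list the genes named were the called ones with the 3 largest changes each way, or the 2 most abundant where none was called; Cxcl16 under the TSC1 KO label and C1qbp in Db islets were named after their values were seen, because few genes of their lists were called. 1 gene that this rule names is not reported here. Wilson and exact intervals are at 95%, and intervals and floors of 3 counts cover counting error only, because reads are not independent molecules.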

Additional observations from a re-analysis of the deposited data

Results flagged for a closer look

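The joint edgeR fit over 8 islet libraries called 31.8% of 15702 genes. Of the 10 markers 2, a smaller share, had unequal TSC1 KO and Db differences. For C1qa the difference between them was -1.42 on the log2 scale (SE 0.32, adjusted p = 0.00518), with a lower level in 2 of 2 TSC1 KO libraries and overlapping groups in the Db comparison. For H2-Ab1 it was 1.20 (SE 0.36, adjusted p = 0.0235), with overlapping groups in the TSC1 KO comparison and a lower level in 2 of 2 Db libraries. The H2-Ab1 call was lost with scaling by library totals (adjusted p = 0.246) and without 6 of the 8 libraries, each left out in turn.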

How the results depend on the processing

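Over 61 gene results and their alternatives, 679 values in all, 585 kept their direction and their side of the threshold, 60 lost the call, 6 gained it and 28 changed direction. Each islet group has 2 libraries, and 5 of the 10 markers had too few counts to test in β-cells. The cause of the changes below was not tested.

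Scaling by library totals gave 2 lower markers under the TSC1 KO label and 1 marker in the joint fit, and turned Lyz2 to -0.08, Cd74 to -0.23, H2-Ab1 to -0.10, H2-Aa to -0.09 and H2-Eb1 to -0.13 on the log2 scale. It turned C1qa in Db islets to 0.24, as did DESeq2 with 0.03 and no filter with 0.06. Cd74 under the TSC1 KO label was -0.00 with insulin and mitochondrial genes left out and -0.03 with no filter. With no filter 1 marker, C1qa, was called higher in adult β-cells. DESeq2 called 2 lower markers in Db islets, and 1707 genes between β-cell ages in place of 999.

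Leaving out 1 library gave 405 to 1380 called genes between β-cell ages. Under the TSC1 KO label it gave 0 to 4015 called genes and 0 to 1 lower markers, 0 without either KO library. In Db islets it gave 4419 to 6666 genes against 6919, and in the joint fit 2910 to 5909 genes and 1 to 2 markers, 1 without RC control replicate 2, TSC1 KO replicate 1, BKS control replicate 2 or Db replicate 2. Log2 differences that changed direction ranged under the TSC1 KO label from -0.64 to 0.07 for Ptprc, -0.29 to 0.09 for Csf1r, -0.13 to 0.56 for Lyz2, -0.28 to 0.37 for Cd74, -0.17 to 0.53 for H2-Ab1, -0.12 to 0.47 for H2-Aa and -0.21 to 0.52 for H2-Eb1. In Db islets they ranged from -0.12 to 0.45 for Cd68, -0.23 to 0.16 for C1qa, -0.92 to 0.27 for Lyz2 and -0.56 to 0.03 for Cd74.

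Deviations of same-numbered islet libraries from their group means had correlations of -0.0547 and -0.0351. In a group of 2 libraries these deviations mirror each other, so the correlations cannot decide whether the numbers pair libraries. The labels do not say so either. A replicate block left 1648 genes called under the TSC1 KO label in place of 2703, with 1 lower marker as before, and 4 lower markers in Db islets as before. Under the block the call of Jchain was lost (adjusted p = 0.0689). No paired analysis was possible for β-cells because the neonatal columns carry the numbers 1, 3 and 3.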
